A study of Mus musculus with 5 samples.

Results

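Complex III, complex IV and ATP synthase form the last stretch of oxidative phosphorylation in mitochondria. The 45 genes described here are those whose symbol in the platform annotation starts with Uqcr, Atp5 or, for the lettered subunits of complex IV, Cox4 to Cox8, together with Cyc1 and Cycs, out of 22180 genes measured by an array feature of their own. Of the 47 symbols that match, Uqcr10 and Cox6c have only features shared with a second gene and were not measured. Complex III with cytochrome c holds 10 of the 45 genes, complex IV 17 and ATP synthase 18. The pseudogenes Uqcrh-ps1 and Atp5c1-ps also match and are counted among them. Choosing by name used no measured value, but the group was proposed with results of these arrays known.

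The study asked how retinoic acid acts on the dormancy of hematopoietic stem cells (HSCs), the bone marrow cells that renew the blood. From C57BL/6 mice, stem and progenitor cells were kept for 24 h in 5 µM all-trans retinoic acid (ATRA), the active form of vitamin A, or in the solvent DMSO, after which HSCs were sorted by flow cytometry. RNA was measured on 2 arrays for ATRA and 3 for DMSO. The labels do not say whether arrays of a group came from separate mice or cultures, so the p-values rest on the spread among these 5 arrays alone, and that spread may be technical. They also give neither the markers of the sort nor the number of mice.

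In complex III, electrons pass from ubiquinol to cytochrome c, a small carrier that hands them to complex IV, where oxygen is reduced to water. Both complexes pump protons, and ATP synthase lets the protons flow back through its membrane part, Fo, to drive ATP formation in its catalytic head, F1. Quiescent HSCs are known for low mitochondrial respiration, which increases when they are activated.

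All values are log2 expression values, so a difference of 1 is a doubling, and all differences are ATRA minus DMSO. A call means a limma adjusted p under 0.05 over all 22180 genes. The number of arrays limits the precision. The arrays of ATRA spread less widely than those of DMSO, with an SD over all features of 1.77 and 1.49 against 1.96 to 1.97, and they correlated with each other at 0.730 across features, against 0.966 to 0.978 among DMSO arrays. Among the 8 of 9 stem and progenitor markers that were measured, Kit, Mecom, Hlf and Flt3 were called lower, and the mean of the 8 was 7.48 and 6.67 on the ATRA arrays against 8.34 to 8.52 in DMSO. Once the trend with expression level described below was removed, none of these 4 passed and Hlf had a difference of 0.28. Means of 5 myeloid markers were 6.31 and 6.18 against 6.09 to 6.29, those of 3 lymphoid markers 6.55 and 7.18 against 6.27 to 6.47. The 2 measured megakaryocyte markers averaged 8.75 and 8.22 against 9.37 to 9.89, with Itga2b called lower (-2.07, adjusted p = 0.00792) and Pf4 not (-0.17, adjusted p = 0.767), and the 2 measured erythroid markers 5.74 and 6.37 against 5.91 to 6.39. With that trend removed, Itga2b did not pass (-0.24, adjusted p = 0.751). Pf4 (2.03, adjusted p = 0.0284) and the lymphoid marker Nkg7 (0.85, adjusted p = 0.0394) were then called higher. The part of all these markers in the results below was not tested. In such bulk RNA, fewer cells of a type and less RNA per cell cannot be told apart.

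Of the 45 genes, 3 were called higher with ATRA, where 6.48% of all genes were, and 3 were called lower, where 15.5% of all genes were. The other 39 did not pass. The 3 falls were Atp5b of the F1 head, Atp5d of the F1 stalk and Uqcrc1 of complex III. The 3 rises were Atp5k and Atp5l, small membrane subunits of ATP synthase, and Cox7b, a small subunit of complex IV. The median difference over the 45 genes was -0.08, against 0.16 over all genes. None of the 6 calls held when any 1 of the 3 DMSO arrays was left out, where limma called 0 of all genes. At an unadjusted p under 0.05 there were then 7 of the 45 genes each time, where 26.6% to 27.3% of all genes were, against 11 with all arrays, where 40.3% of all genes were. Taken by itself, ATRA replicate 1 had a median difference of 0.14 from the DMSO mean over the 45 genes, and replicate 2 had -0.48.

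**Figure D1:**
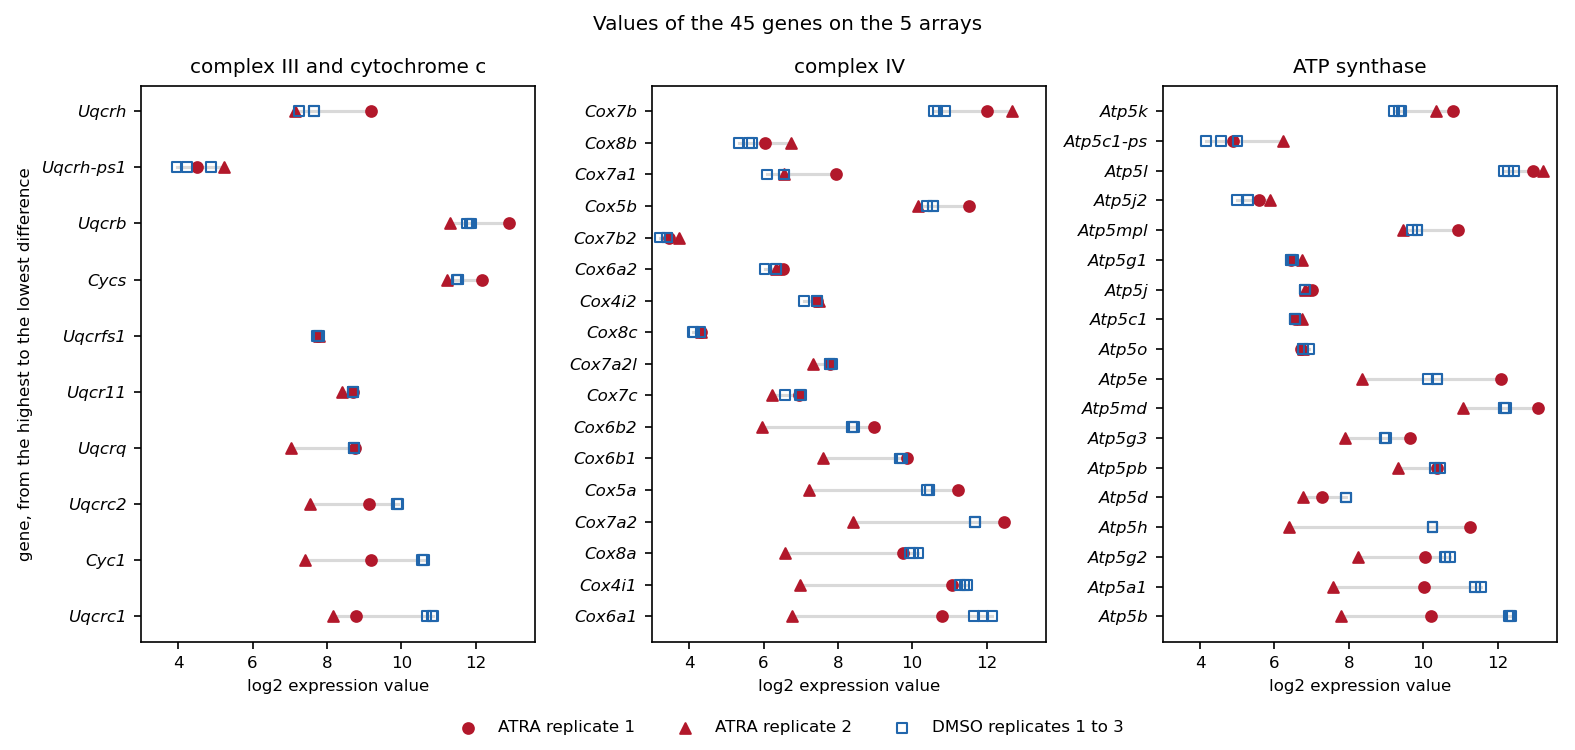
Log2 expression values of all 45 genes on the 2 ATRA arrays (red circles and triangles) and the 3 DMSO arrays (open blue squares), 1 row per gene and 1 panel per complex, ordered by the difference between the group means. Atp5b, Atp5d and Uqcrc1 have both ATRA points left of every DMSO point, Cox7b, Atp5k and Atp5l have both to the right, and genes such as Atp5e and Cox7a2 have 1 ATRA point on each side.

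Atp5b and Atp5a1 of the F1 head, and Uqcrc1, Uqcrc2 and Cyc1 of complex III, had both ATRA values below every DMSO value. That order held for 10 of the 45 genes and for 29.2% of all genes. Atp5b, the beta subunit of F1 that carries the catalytic sites, was at 10.22 and 7.80 in ATRA, against 12.30, 12.33 and 12.38 in DMSO. It fell by 3.33 (10-fold lower, SE 0.74, adjusted p = 0.0425), though the ATRA arrays differ from each other by more than the spread among the DMSO arrays. With the alpha subunit gene Atp5a1 at 10.02 and 7.56 in ATRA and 11.39, 11.40 and 11.55 in DMSO, the same order held, but the difference of -2.65 (95% interval -4.66 to -0.65, adjusted p = 0.0715) did not pass.

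Atp5d, the delta subunit of the F1 stalk, was at 7.27 and 6.76 in ATRA, against 7.94 in each DMSO array, and fell by 0.92 (SE 0.19, adjusted p = 0.0358). Its DMSO values are equal to the last deposited digit, and a further feature of the gene showed a difference of -0.28 that did not pass. In the fit over all features, the feature used for Atp5d had an adjusted p of 0.0531 and did not pass. The remaining F1 genes, Atp5c1 for gamma and Atp5e for epsilon, differed by 0.10 (95% interval -0.22 to 0.42) and -0.08 (95% interval -3.11 to 2.96). The ATRA arrays stood far apart in Atp5e, with 12.09 in replicate 1 and 8.35 in replicate 2, against 10.14, 10.38 and 10.38 in DMSO. One ATRA array thus lies far above all DMSO values and the other far below them.

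In complex III, Uqcrc1, the larger core protein, was at 8.79 and 8.16 in ATRA, against 10.68, 10.86 and 10.83 in DMSO. It fell by 2.32 (4.98-fold lower, SE 0.22, adjusted p = 0.00876), the smallest adjusted p among the 45 genes. Cyc1, the cytochrome c1 that passes electrons on to cytochrome c, was at 9.20 and 7.40 in ATRA and at 10.57, 10.62 and 10.58 in DMSO, a difference of -2.29 (SE 0.56, adjusted p = 0.0512) that did not pass. Uqcrc2, the partner core protein, was at 9.14 and 7.53 in ATRA, against 9.87, 9.92 and 9.87 in DMSO (difference -1.55, adjusted p = 0.0911). For all 3 genes both ATRA values lay below every DMSO value, as they did for 29.2% of all genes.

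Uqcrfs1, the Rieske iron-sulfur protein that is the other electron-carrying subunit encoded in the nucleus, had a smaller difference than these genes. Whether it differs from them was not tested. Its values were 7.75 and 7.79 in ATRA, against 7.72, 7.78 and 7.75 in DMSO, and the difference of 0.02 had a 95% interval from -0.27 to 0.30. With the trend with expression level removed, Uqcrfs1 differed by 0.85, against 0.28 for Uqcrc1, 0.21 for Cyc1 and 0.61 for Uqcrc2. None of these passed. Among the supernumerary subunits, Uqcrq was at 8.75 and 7.02 in ATRA and at 8.73 in every DMSO array (difference -0.84, adjusted p = 0.264), and Uqcrb was at 12.91 and 11.30, against 11.89, 11.77 and 11.83 (difference 0.27, adjusted p = 0.666). In Uqcrb replicate 1 of ATRA lay above and replicate 2 below all DMSO values. The other complex III genes, Uqcrh, Uqcr11 and the pseudogene Uqcrh-ps1, differed by -0.16 to 0.65 and did not pass.

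The genes that rose encode small membrane-bound subunits. Atp5k, subunit e of the membrane part of ATP synthase, was at 10.79 and 10.35 in ATRA, against 9.22, 9.42 and 9.36 in DMSO, and rose by 1.24 (2.36-fold, SE 0.18, adjusted p = 0.0179). Atp5l, subunit g, was at 12.96 and 13.22 in ATRA, against 12.44, 12.18 and 12.27 in DMSO, and rose by 0.79 (1.73-fold, SE 0.15, adjusted p = 0.0323). Subunits e and g lie side by side in the membrane and take part in joining ATP synthase into dimers.

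The 3 further small membrane subunits did not pass, but all 5 had ATRA replicate 1 above every DMSO value, as had 41.4% of all genes. Atp5j2, subunit f, was at 5.59 and 5.88 in ATRA and at 5.28, 4.98 and 5.28 in DMSO (difference 0.55, adjusted p = 0.086). Atp5md was at 13.10 and 11.07 in ATRA, against 12.17, 12.22 and 12.17 in DMSO, and Atp5mpl at 10.94 and 9.45, against 9.85, 9.85 and 9.71. For these last genes replicate 2 lay below all DMSO values, and their mean differences were -0.10 (adjusted p = 0.905) and 0.40 (adjusted p = 0.504).

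Cox7b, a small subunit of complex IV, was at 12.01 and 12.68 in ATRA, against 10.89, 10.68 and 10.59 in DMSO, and rose by 1.63 (3.08-fold, SE 0.25, adjusted p = 0.0189). Another feature that names the gene did not share this rise, with 7.13 and 5.57 in ATRA and 7.27, 6.59 and 6.40 in DMSO, a difference of -0.40 (adjusted p = 0.594 in the fit over all 41345 features, where the brighter feature had adjusted p = 0.0274). The rise of Cox7b therefore rests on 1 of its 2 features, and the mean of the features differed by 0.61 (adjusted p = 0.145).

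Respiratory genes share promoter sites for the factors NRF1 and GABP in the known biology of mitochondria, so the windows from 250 bases before to 50 after the start sites were read from RefSeq (build GRCm38.p6), which held 33 of the 45 genes. The 8 letters GCATGCGC, the core of the NRF1 motif, occur on either strand in 7 of these 33 genes (21.2%), against 824 of 27025 genes with a window (3.05%). The 7 genes are Atp5g2, Atp5k, Atp5l, Cox6a1, Cycs, Uqcr11 and Uqcrc1. The letters CCGGAAG, as bound by GABP and other ETS factors, occur in 11 of 33 genes (33.3%), against 9.93% of all genes. Direct repeats of AGGTCA with 5 or 2 bases between, a form of retinoic acid response element, were found in 0 of 33 genes, and in 3 and 2 of the 27025. Only exact repeats in these short windows were sought. At so rare an occurrence 0 of 33 was to be foreseen, so this search cannot tell whether the genes have such elements. The NRF1 and ETS matches are of letters and not shown to be bound. NRF1 letters occur in genes that rose (Atp5k, Atp5l) and in a gene that fell (Uqcrc1). Other letters searched on both strands were CACGTG (12.1% of the 33 genes, against 8.09% of all), GGGCGG (39.4%, against 38.2%), CCAAT (54.5%, against 41.1%) and AAGATGGCG (6.06%, against 1.64%). The windows shown are those of 2 genes that rose, Atp5k at chr5:108434350-108434649 on the minus strand and Atp5l at chr9:44920693-44920992 on the minus strand, of Uqcrc1, which fell, at chr9:108936398-108936697 on the plus strand, and of Cycs, whose NRF1 site is a textbook example in rat, at chr6:50566520-50566819 on the minus strand. They run 5′ to 3′, with NRF1 and ETS letters on either strand in capitals. In Atp5k and Uqcrc1 the NRF1 letters on both strands overlap in the palindrome GCGCATGCGC, from base -50 in Atp5k and base 31 in Uqcrc1, counted from the start site as base 1.
Atp5k: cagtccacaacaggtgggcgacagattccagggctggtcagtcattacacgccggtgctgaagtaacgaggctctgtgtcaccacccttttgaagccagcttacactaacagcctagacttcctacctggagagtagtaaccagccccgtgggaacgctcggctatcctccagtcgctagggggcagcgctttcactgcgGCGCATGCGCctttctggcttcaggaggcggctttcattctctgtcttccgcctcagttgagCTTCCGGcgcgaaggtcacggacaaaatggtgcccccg
Atp5l: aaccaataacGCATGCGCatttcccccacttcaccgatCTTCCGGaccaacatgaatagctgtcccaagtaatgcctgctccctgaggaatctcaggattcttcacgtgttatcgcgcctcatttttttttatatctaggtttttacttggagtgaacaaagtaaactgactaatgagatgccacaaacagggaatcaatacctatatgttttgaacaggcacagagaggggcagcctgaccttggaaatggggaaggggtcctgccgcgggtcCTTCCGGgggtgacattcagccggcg
Uqcrc1: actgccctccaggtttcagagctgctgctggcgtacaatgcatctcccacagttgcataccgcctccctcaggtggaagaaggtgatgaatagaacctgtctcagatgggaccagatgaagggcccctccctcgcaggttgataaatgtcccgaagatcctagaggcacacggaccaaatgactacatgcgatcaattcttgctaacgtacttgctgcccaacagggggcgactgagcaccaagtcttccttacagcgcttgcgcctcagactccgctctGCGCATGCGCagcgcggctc
Cycs: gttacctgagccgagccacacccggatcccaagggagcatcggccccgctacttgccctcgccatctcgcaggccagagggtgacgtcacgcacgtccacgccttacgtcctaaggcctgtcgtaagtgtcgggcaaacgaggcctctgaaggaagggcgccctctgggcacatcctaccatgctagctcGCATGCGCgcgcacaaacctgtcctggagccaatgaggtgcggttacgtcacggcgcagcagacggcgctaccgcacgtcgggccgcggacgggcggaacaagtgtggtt
The windows of Atp5b, Atp5d and Cox7b held neither the NRF1 nor the ETS letters, which says nothing about whether these factors act on the genes.

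Cycs, cytochrome c itself, was measured by 5 features that differed in direction. The brightest feature was at 12.17 and 11.22 in ATRA, against 11.52, 11.48 and 11.52 in DMSO, a difference of 0.19 (95% interval -0.63 to 1.0, adjusted p = 0.626). In a fit over all features, feature 17358271 rose by 1.16 (SE 0.17, adjusted p = 0.0232), with 10.84 and 10.77 in ATRA and 9.84, 9.53 and 9.56 in DMSO. The other 3 features differed by -0.29 to -0.27 and did not pass, and a pair of them carried identical values. Cytochrome c has many processed pseudogenes of near-identical sequence in mammalian genomes, and which copy each feature reads is not given in the sources used here, so the value of Cycs is uncertain.

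**Figure D2:**
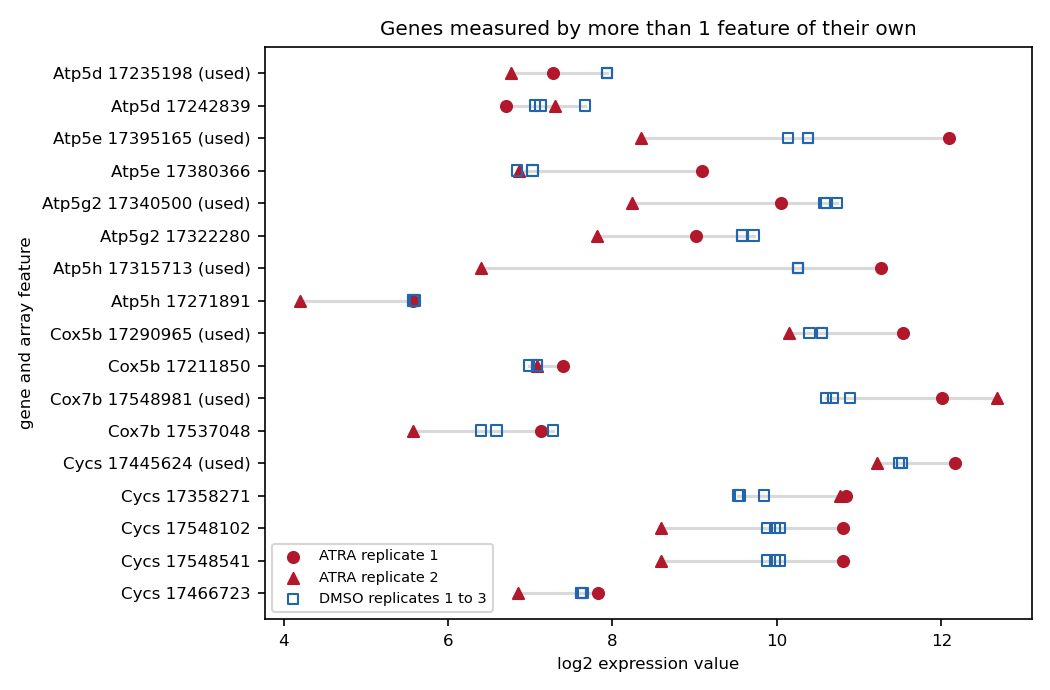
Log2 expression values of the 7 genes measured by more than 1 feature of their own, 1 row per feature, on the ATRA arrays (red circles and triangles) and the DMSO arrays (open blue squares), with the feature used for the gene marked. The features of Cox7b differ in where both ATRA points lie against the DMSO points, and feature 17358271 of Cycs is the only Cycs feature with both ATRA points right of all DMSO points.

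The 10 common subunits of complex IV had a median difference of -1.08, and apart from Cox7b none passed. Their medians were 0.14 on ATRA replicate 1 and -2.65 on replicate 2. Cox6a1 was at 10.80 and 6.77 in ATRA, against 11.65, 12.14 and 11.90 in DMSO, a difference of -3.11 (95% interval -6.40 to 0.17, adjusted p = 0.137). Cox4i1, the common form of the largest nuclear subunit, was at 11.06 and 6.97 in ATRA and at 11.29, 11.48 and 11.40 in DMSO (difference -2.38, adjusted p = 0.217). Cox8a was at 9.75 and 6.58, against 9.95, 10.17 and 10.03 (difference -1.88, adjusted p = 0.211). In these genes both ATRA values were below all DMSO values, as in 29.2% of all genes, and replicate 2 was lower than replicate 1. Replicate 1 differed from the DMSO mean by -1.10 in Cox6a1, -0.33 in Cox4i1 and -0.30 in Cox8a.

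In Cox7a2, Cox6b1, Cox5b and Cox5a the ATRA arrays lay on opposite sides of DMSO. Cox7a2 was at 12.45 and 8.42 in ATRA, against 11.68 in each DMSO array (difference -1.24, 95% interval -4.51 to 2.03). Cox6b1, which sits on the outer face of the complex near the cytochrome c site, was at 9.87 and 7.59, against 9.67, 9.73 and 9.66 (difference -0.96, adjusted p = 0.308). Cox5b was at 11.53 and 10.15, against 10.55, 10.40 and 10.55 (difference 0.34, adjusted p = 0.536). Cox5a, singled out after its values were seen, showed 11.24 and 7.24, against 10.39, 10.47 and 10.47. In Cox7a2l and Cox7c replicate 1 lay within the DMSO range and replicate 2 below it. Cox7a2l, a relative of subunit 7a, was at 7.80 and 7.33, against 7.80, 7.80 and 7.86 (difference -0.25, 95% interval -0.72 to 0.22), and Cox7c differed by -0.26.

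Several subunits of complex IV come in forms made in particular tissues, and 7 of the 17 genes are such forms. None of the 7 passed, and their median difference was 0.20. Whether they differ from the common forms was not tested. Cox6a2, Cox7a1 and Cox8b are forms of heart and skeletal muscle. Cox6a2 was at 6.53 and 6.34 in ATRA, against 6.03, 6.34 and 6.34 in DMSO, and differed by 0.20 (95% interval -0.23 to 0.63). Cox7a1 was at 7.94 and 6.56, against 6.10, 6.56 and 6.56 (difference 0.84, adjusted p = 0.228). Cox8b was at 6.04 and 6.74, against 5.33, 5.69 and 5.61, with both ATRA values above DMSO (difference 0.84, adjusted p = 0.0866). That order held for 6 of the 45 genes and for 33% of all genes.

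Cox4i2, a form of lung, was at 7.44 and 7.50 in ATRA, against 7.44, 7.44 and 7.09 in DMSO, and differed by 0.15 (95% interval -0.28 to 0.58). The testis forms were Cox6b2, at 8.98 and 5.96 against 8.38, 8.38 and 8.44 (difference -0.93, adjusted p = 0.433), and Cox8c, at 4.31 and 4.33 against 4.13, 4.31 and 4.11 (difference 0.14, adjusted p = 0.396). Cox7b2 was at 3.46 and 3.73, against 3.40, 3.22 and 3.40 (difference 0.25, adjusted p = 0.241). Cox6b2 was thus the tissue form with the widest gap between the ATRA arrays. Means of 4 striated muscle markers were 5.86 and 6.54 in ATRA, against 5.76 to 5.84 in DMSO, and those of 3 testis markers 4.90 and 5.48, against 4.68 to 4.82, and none of these 7 markers passed. Their part in these values was not tested.

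The c subunit of the ATP synthase rotor is encoded by Atp5g1, Atp5g2 and Atp5g3, which give the same mature protein. Atp5g2 was at 10.05 and 8.24 in ATRA, against 10.58, 10.73 and 10.60 in DMSO (difference -1.49, 95% interval -2.98 to 0.00, adjusted p = 0.124). Both its ATRA values were lower than all DMSO values, as in 29.2% of all genes. Atp5g3 was at 9.65 and 7.91, against 8.96, 9.0 and 8.98, on both sides of DMSO (difference -0.20, adjusted p = 0.774). Atp5g1 was at 6.45 and 6.75, against 6.49, 6.44 and 6.45 (difference 0.14, 95% interval -0.23 to 0.51). Whether the forms differ from one another was not tested. The 4 genes of the peripheral stalk, Atp5pb, Atp5h, Atp5j and Atp5o, which hold the F1 head in place, differed by -1.42 to 0.10, and none passed. Among them Atp5h was at 11.26 and 6.40 in ATRA, against 10.25 in each DMSO array. The pseudogene Atp5c1-ps was at 4.90 and 6.23, against 4.16, 4.56 and 5.01, and did not pass (adjusted p = 0.2).

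The ATRA arrays opposed each other in 14 of the 45 genes, in which replicate 1 lay above all DMSO values and replicate 2 below all of them. That order held for 4.37% of all genes, and the opposite order held for 0 of the 45 and 3.19% of all genes. When either ATRA array was left out and the other set against DMSO, 16 genes were called higher and 7 lower with replicate 1 alone, where 13.3% and 21.3% of all genes were. With replicate 2 alone 6 were called higher and 25 lower, where 33.5% and 30.6% of all genes were. Of these, 10 were called higher with replicate 1 and lower with replicate 2, as were 2.17% of all genes. Atp5k and Cox7b were called higher with each array alone, as were 7.73% of all genes. A further 7 genes were called lower with each, as were 18% of all genes, namely Atp5a1, Atp5b, Atp5d, Atp5g2, Cyc1, Uqcrc1 and Uqcrc2. Each such fit takes the spread of the single ATRA array to be that of the DMSO arrays.

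**Figure D3:**
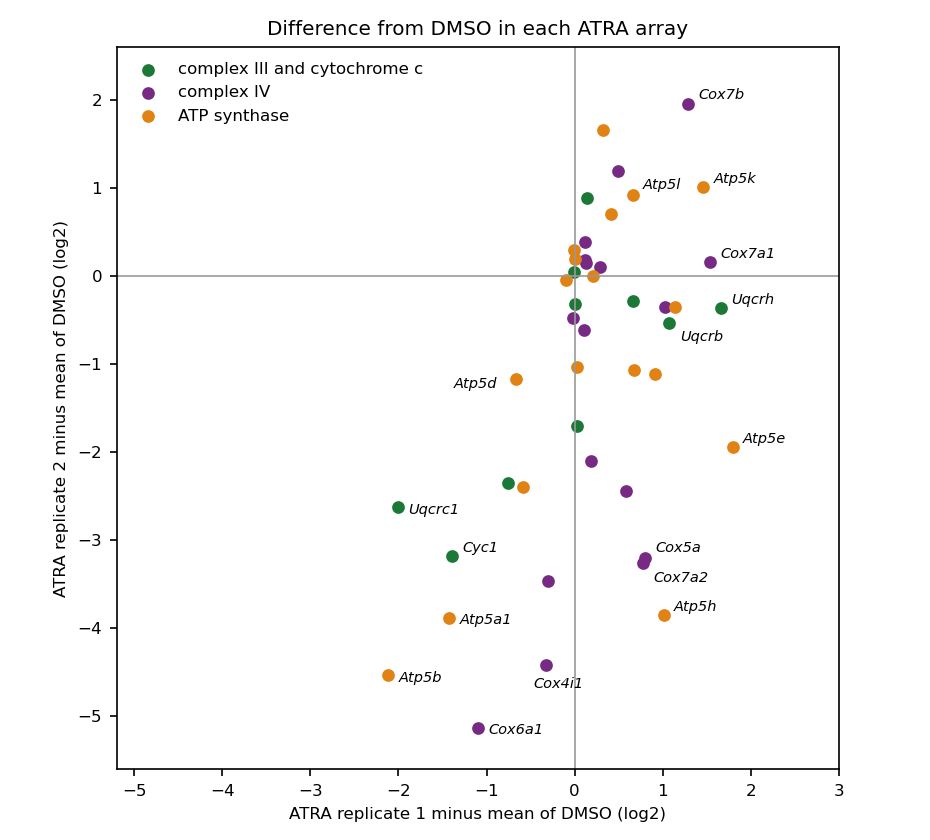
Difference of each of the 45 genes from the DMSO mean on ATRA replicate 1 (horizontal, log2) and replicate 2 (vertical, log2), 1 point per gene, coloured by complex. Cox7b, Atp5k and Atp5l lie upper right, Uqcrc1, Atp5b and Atp5a1 lower left, and Atp5e, Atp5h, Cox5a and Cox7a2 lower right, above DMSO on 1 ATRA array and below it on the other.

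Genes abundant in DMSO had lower values on the arrays of ATRA, so the respiratory genes were also read against genes of like level. Over the 4450 genes whose mean in DMSO lay between 8 and 14, the median difference was -1.09 on ATRA replicate 1 and -2.08 on replicate 2. The 27 respiratory genes in that range had medians of 0.58 and -2.10. The DMSO mean enters both the level and the difference here. That range is wide, and 3805 of the 4450 genes lie between 8 and 10. Set against the median of all genes in the same step of 0.5 in DMSO level, 22 of the 27 lay above it on replicate 1 and 19 on replicate 2. Between 10 and 11 in DMSO, the medians of 10 respiratory genes were 0.41 and -2.51, against -1.42 and -3.23 for all 466 genes there. Between 11 and 12, the medians of 6 respiratory genes were 0.17 and -3.57, against -1.07 and -3.55 for all 133 genes. On replicate 2 they thus did not lie above genes of like level in that range.

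**Figure D4:**
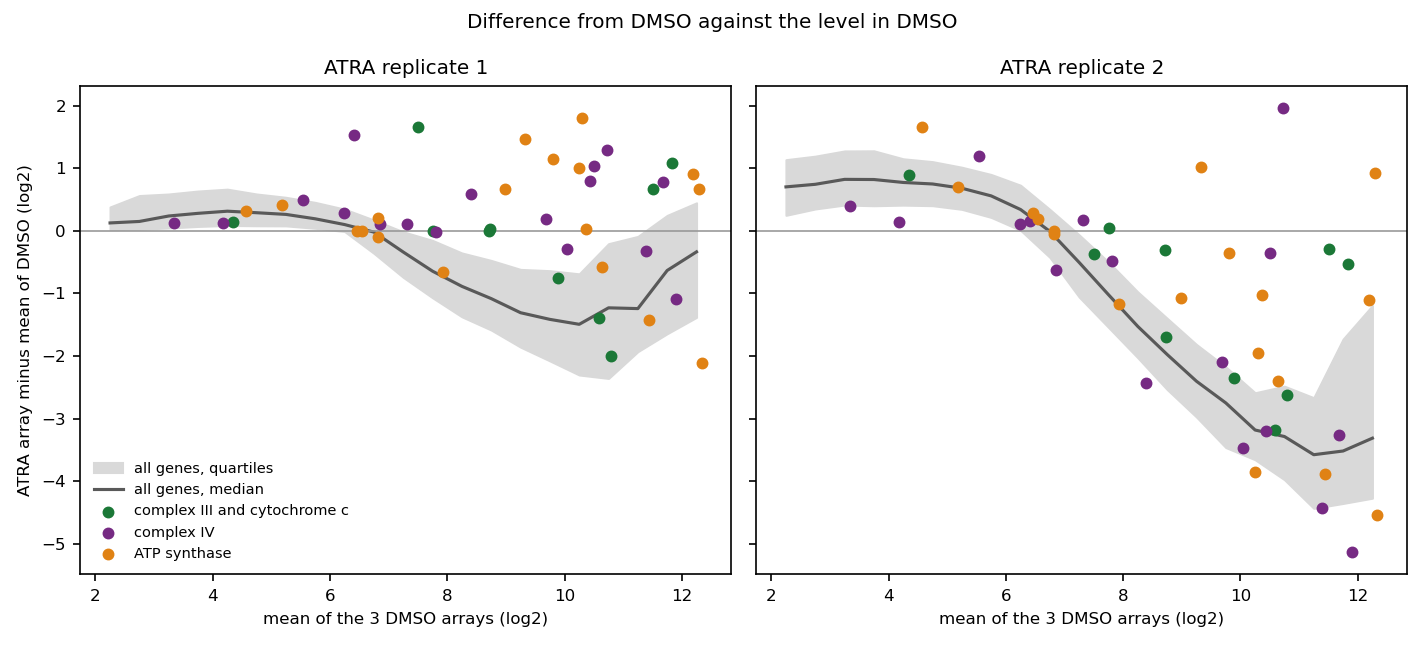
Difference from the DMSO mean on each ATRA array (vertical, log2) against the mean of the 3 DMSO arrays (horizontal, log2), with the 45 genes as coloured points and all genes as the grey median line and quartile band over steps of 0.5. Of the 27 respiratory genes with a DMSO mean above 8, 22 lie above the median of their step on replicate 1 and 19 on replicate 2.

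When each array's trend on DMSO level was subtracted before the fit, 10 of the 45 genes were called higher and 0 lower, where 2.28% of all genes were higher and 1.01% lower. The median difference became 0.63, against 0.02 over all genes, and 38 of the 45 differences were positive. The 10 were cytochrome c itself, Cycs (3.12), Uqcrb (3.35) and Uqcr11 (1.34) of complex III, Cox5b (2.80) of complex IV, and Atp5k (3.11), Atp5md (3.14), Atp5mpl (2.52), Atp5pb (1.89), Atp5g3 (1.47) and Atp5g2 (1.03) of ATP synthase, with the difference on this scale in brackets. Of these, Atp5k was also called on the deposited values, and Atp5g2, Atp5g3, Atp5md, Atp5pb and Uqcr11 had negative differences there. Among the brightest genes the subtracted curve lay lower than the median of all genes, so differences with the trend removed are overstated for them. In the step from 11.5 in DMSO, the medians of 46 genes were -0.63 and -3.52 on the ATRA arrays. Uqcrb, in that step, moved from 0.27 to 3.35. The falls of Uqcrc1 and Atp5d turned into differences of 0.28 and 0.05 once the trend was removed, and that of Atp5b shrank to -0.02 (adjusted p = 0.954). Atp5b is among the brightest genes, and it lay below genes of like level on both ATRA arrays. It stood at -2.12 and -4.53 from the DMSO mean, against medians of -0.34 and -3.31 for 26 genes in the step from 12. After cyclic loess normalization, which also flattens such trends, 9 of the 45 were higher and 2 lower, where 3.48% and 6.78% of all genes were. The 2 lower were Atp5b (-1.13, adjusted p = 0.0259) and Atp5a1 (-0.63, adjusted p = 0.044). By both methods 7 were higher, as were 1.86% of all genes.

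Repeated values limit what these arrays say about some of the genes. In 7 of the 45 genes the 3 DMSO values were equal to the last digit, as in 6.47% of all genes, and in 25 of them at least 2 of the 5 arrays shared a value, as in 47.8% of all genes. For Uqcr11, Atp5j and Atp5c1, 4 of the 5 arrays had 1 value. An equal value gives a spread of 0, so that the error of such a gene comes from the ATRA arrays and from the other genes through the fit.

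Of the 35 measured genes that assemble or regulate the complexes, 9 were called lower and 0 higher on the deposited scale, where 15.5% and 6.48% of all genes were. With the level trend removed 6 were called higher and 0 lower, where 2.28% and 1.01% of all genes were, so the direction of the calls depends on that step. Of 6 measured assembly factors of complex III, 0 rose and 2 fell, Bcs1l, which inserts the Rieske protein (-0.99, adjusted p = 0.012), and Uqcc1 (-0.81, adjusted p = 0.046), and the median was -0.57. Of 23 measured genes for complex IV assembly, copper or heme delivery and the associated Ndufa4, 0 rose and 4 fell, with a median of -0.36. They were Coa3, an assembly factor that acts with the first subunit (-2.56, adjusted p = 0.00759), Lrpprc, which stabilizes mitochondrial messenger RNA (-1.21, adjusted p = 0.0122), Cox15, an enzyme of heme a synthesis (-1.13, adjusted p = 0.0176), and Coa5 (-1.06, adjusted p = 0.0394). Of 6 measured genes of ATP synthase assembly and inhibition, 0 rose and 3 fell. Atpaf2, which binds the free alpha subunit, was at 6.99 and 6.67 in ATRA, against 8.79, 8.97 and 8.74 in DMSO (-2.0, adjusted p = 0.00739), and Atpaf1, which binds the free beta subunit, was at 6.25 and 6.32, against 8.0, 7.93 and 7.86 (-1.64, adjusted p = 0.00675). Tmem70 fell by 0.78 (adjusted p = 0.039). Hccs, the lyase that attaches heme to cytochrome c, was at 5.82 and 7.07 in ATRA, against 9.01, 8.85 and 8.94 in DMSO (-2.49, adjusted p = 0.0213). None of these falls passed with the level trend removed, where that of Cox15 became 0.02, that of Coa5 0.96 and that of Tmem70 0.77. The 6 then called higher were Uqcc3 (2.35), Cox17, a copper carrier (2.11), Cox20 (2.83), Ndufa4 (2.31), Atpif1, the inhibitor of ATP synthase (2.56), and Fmc1 (1.26), with adjusted p from 0.0107 to 0.0398.

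The 3 measured subunits of these complexes that mitochondrial DNA encodes did not pass on the deposited values. Cytochrome b, the gene CYTB of complex III, was at 11.82 and 10.38 in ATRA, against 11.89, 11.82 and 11.83 in DMSO (difference -0.75, adjusted p = 0.249). COX1, the catalytic subunit of complex IV, differed by -0.44 (adjusted p = 0.241) and COX3 by 0.47 (adjusted p = 0.263). With the trend removed, CYTB (2.34, adjusted p = 0.0394) and COX3 (3.42, adjusted p = 0.0309) were called higher. Both are among the brightest genes, for which differences with the trend removed are overstated. The other 3 of the 6 such genes had no feature of their own. Of the 42 genes of complex I whose symbols start with Nduf, 1 was called higher and 6 lower, where 6.48% and 15.5% of all genes were, with a median difference of -0.50. With the trend removed 14 were called higher and 2 lower, where 2.28% and 1.01% of all genes were, with a median of 0.92. On the deposited values, in 21 of the 42 ATRA replicate 1 lay above and replicate 2 below all DMSO values, as in 4.37% of all genes. Of 8 genes of complex II and its assembly, 0 rose and 2 fell, Sdha, which binds the flavin (-3.17, adjusted p = 0.0109), and Sdhb, which carries its iron-sulfur centres (-1.42, adjusted p = 0.0188). With the trend removed neither passed, with differences of -0.70 (adjusted p = 0.184) for Sdha and 0.32 (adjusted p = 0.371) for Sdhb, and Sdhaf1, an assembly factor, was called higher (1.4, adjusted p = 0.022).

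Of 11 known regulators of respiratory genes, 6 were lower, where 15.5% of all genes were, 0 were higher, and the median was -0.94. With the trend removed 0 were lower and 1 was higher, Yy1 (1.61, adjusted p = 0.0169), where 1.01% and 2.28% of all genes were, and the median was -0.18. Pprc1, a coactivator of the PGC-1 family, was at 7.49 and 7.28 in ATRA, against 9.16, 8.97 and 8.97 in DMSO, and fell by 1.65 (adjusted p = 0.00747). Gabpb2, a partner of the GABP alpha subunit, fell by 1.07 (adjusted p = 0.012), Gabpa, that alpha subunit, by 1.23 (adjusted p = 0.0343) and the transcription factor gene Myc by 1.66 (adjusted p = 0.0372). Once the trend was taken out, the difference was 0.05 for Pprc1, -0.60 for Gabpb2, -0.76 for Gabpa and 0.80 for Myc, and none of these passed. The differences between the lists and the 45 genes were not tested.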

How the data were processed

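RNA of HSCs sorted after culture was measured on Affymetrix arrays, 2 for ATRA and 3 for DMSO, and groups were taken from the sample titles. The authors deposited log2 expression values, 1 per feature and array. Tools named in the submitters' processing notes are RMA, oligo 1.36.1 and limma 3.28.20, without saying what each did. Neither genome build nor annotation version is given in the sources used here. The 5 columns do not share 1 distribution, so whether they were normalized together is not known.

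Of 41345 features, 23521 named 1 gene in the platform annotation, 1814 named several and were not used, and the rest are unnamed here. Symbols were updated by gene identifier, and each of the 22180 genes took the feature of the highest mean on the 5 arrays. ATRA was compared with DMSO by limma 3.58.1 in R 4.3.3, with 3 residual degrees of freedom, and two-sided p-values were adjusted by the Benjamini-Hochberg method across the 22180 genes. The level trend was a lowess curve with a span of 0.3. The smallest p of an exact permutation test here is 0.1. The 45 genes, the lists and the tests were chosen with earlier results of these data known. The promoter motifs were chosen after the values were seen. Genes given in full were, per complex, the 4 with the smallest and 2 with the largest p, all sets of paralogous forms, and Cyc1, Cycs, Uqcrfs1, Atp5a1 and Atp5b. From each list up to 4 genes with the smallest p could be named. Other genes named were chosen after their values were seen. Pairs with the same replicate number correlated at 0.134 and 0.098 in their deviations from the group means, which does not establish a pairing.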

Additional observations from a re-analysis of the deposited data

How the results depend on the processing

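Precision is limited by the 2 ATRA arrays, which differ. Over all genes, 1437 were higher and 3428 lower, and over the 45 genes 3 and 3. Leaving out single arrays gave 0 to 7424 genes higher and 0 to 6783 lower over all genes, and 0 to 16 higher and 0 to 25 lower among the 45, whose median ranged from -0.48 to 0.14. Without any 1 DMSO array limma called 0 of the 45 genes, with 7 at an unadjusted p under 0.05 each time, against 11 with all arrays. The fit with the replicate block also called 0 higher and 0 lower among the 45 and among all genes (9 of the 45 and 5412 of all genes at an unadjusted p under 0.05). Array weights gave 0 and 0 in both (10 and 4377 at an unadjusted p under 0.05). Other counts are for all genes first, then the 45. An adjusted p under 0.1 gave 3083 higher, and 5 higher and 6 lower. Without an empirical Bayes prior there were 447 higher and 1244 lower, and 0 higher and 1 lower. Quantile normalization gave 439 higher and 1743 lower. Leaving out dim features gave 942 higher. A trended robust prior gave 0 higher among the 45 (10 at an unadjusted p under 0.05 by limma). Centring each array on its median (median of all genes -0.11, against 0.16) gave 560 higher and a median of -0.35 over the 45. Cyclic loess gave 771 higher and 1504 lower, and 9 higher with a median of 0.43. With the level trend removed there were 505 higher and 223 lower, and 10 higher and 0 lower with a median of 0.63.

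Atp5k kept its call under every normalization tried, and lost it without any 1 DMSO array, with the replicate block, with array weights, with the trended robust prior and without a prior. Atp5l lost its call with centring (0.52), quantile normalization (0.82), cyclic loess (3.32) and the trend removed (4.08), and so without a smaller difference in the last 3. Atp5d lost it with quantile normalization, cyclic loess, the trend removed and the mean of features, Cox7b with cyclic loess (3.91), the trend removed (4.19) and the mean of features (0.61), Uqcrc1 with cyclic loess and the trend removed, and Atp5b with the trend removed. The settings listed after Atp5k are normalizations and means of features only. Atp5b, Atp5l and Cox7b also lost their calls with the trended robust prior, without a prior, with array weights and with the replicate block. Atp5d lost its call in these settings except with the trended robust prior, and Uqcrc1 with array weights and the replicate block. Over the 32 genes given in full and all settings but further features, 394 values kept direction and call, 52 lost the call, 37 gained it and 59 changed sign. With the level trend removed the sign changed for Atp5a1 (0.25), Atp5d (0.052), Atp5e (2.29), Atp5g2 (1.03), Atp5g3 (1.47), Atp5md (3.14), Cox4i1 (0.50), Cox6a2 (-0.027), Cox6b1 (1.10), Cox6b2 (0.37), Cox7a2 (1.77), Cox7a2l (0.63), Cox7b2 (-0.26), Cox8a (0.36), Cox8c (-0.41), Cyc1 (0.21), Uqcrc1 (0.28), Uqcrc2 (0.61) and Uqcrq (0.67). After cyclic loess it changed for Atp5e (1.91), Atp5g1 (-0.00051), Atp5g2 (0.43), Atp5g3 (1.35), Atp5md (2.35), Cox6a2 (-0.068), Cox6b1 (0.73), Cox6b2 (0.15), Cox7a2 (1.0), Cox7a2l (0.60), Cox7b2 (-0.20), Cox8c (-0.39), Uqcrc2 (0.13) and Uqcrq (0.46). Quantile normalization changed it for Atp5e (0.54), Atp5g3 (0.50), Atp5md (0.25), Cox7a2l (0.31), Cox7b2 (-0.16) and Cox8c (-0.31). Centring changed it for Atp5g1 (-0.13), Cox4i2 (-0.12), Cox6a2 (-0.073), Cox7b2 (-0.017), Cox8c (-0.13), Cycs (-0.081) and Uqcrfs1 (-0.25). The mean of both features changed it for Atp5e (0.47). Further features, a setting chosen after seeing the data, changed it for Atp5e (1.01), Cox7b (-0.40) and Cycs (-0.29 and, for a pair of equal features, -0.27). Leaving out single arrays changed the sign for 12 genes, with ranges of -1.95 to 1.79 for Atp5e, -0.0079 to 0.29 for Atp5g1, -1.07 to 0.67 for Atp5g3, -1.11 to 0.91 for Atp5md, -0.35 to 1.03 for Cox5b, -2.10 to 0.18 for Cox6b1, -2.44 to 0.58 for Cox6b2, -3.26 to 0.78 for Cox7a2, -0.29 to 0.66 for Cycs, -0.53 to 1.08 for Uqcrb, -0.0035 to 0.040 for Uqcrfs1 and -1.70 to 0.024 for Uqcrq. Signs with the level trend removed are uncertain for the brightest genes, such as Atp5a1, where the subtracted curve lay low as described above. The causes were not tested.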
